A study of Mus musculus with 6 samples.

Results

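The 6 genes of the mouse mitochondrial genome that encode subunits of respiratory complexes III, IV and V were followed across 3 Eldr cKO and 3 control libraries. They were taken from the deposited table by gene symbol and chromosome: mt-Cytb for complex III, mt-Co1, mt-Co2 and mt-Co3 for complex IV, and mt-Atp6 and mt-Atp8 for complex V. All 6 had a row, out of 13 mitochondrial rows and 12560 rows in all, and all 6 passed the filter of a mean of at least 1 FPKM. Each library was total RNA of mouse samples labelled chondrocytes, the cells of cartilage, from mice labelled Eldr cKO or control. Eldr is a long noncoding RNA that the series title links to chondrocyte senescence. Per the labels no age, strain or sex is given, nor the promoter or Cre line behind the cKO, and nothing says whether a library came from a separate animal. The p-values below thus measure spread between libraries that may be technical. Per the labels, ribosomal RNA was removed or poly(A) tails were captured, without saying which was done for which library. The targeted gene, Eldr, was not analysed here. Values are FPKM, a fragment count scaled to transcript length and library size, so levels of genes of different length can be set side by side approximately. This is less sure for mt-Atp8, which is 204 bases long and shares 43 of them with mt-Atp6.

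The mitochondrial genome is a small circular DNA carried in many copies in each mitochondrion. Its genes encode hydrophobic core subunits of the machinery that moves electrons to oxygen and uses the resulting proton gradient to make ATP, while nuclear genes supply the remaining subunits. Long transcripts of each strand are cut into single messenger RNAs mostly at the transfer RNAs between the genes, and most of these messengers then receive a short poly(A) tail. Tissues with a steady demand for ATP, heart muscle foremost, are rich in these transcripts, and cartilage relies more on glycolysis.

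The 6 genes lie on the same strand, at positions that were equal in the table and in GENCODE M21 on GRCm38. Each is a single exon without introns. Their 3' ends show how closely the genome is packed. Each line below gives the last 30 bases of a gene, with the stop codon, or the lone base left of it, in capitals, from GENCODE M21.
mt-Cytb (chrM:15259-15288): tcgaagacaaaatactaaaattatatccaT
mt-Co1 (chrM:6843-6872): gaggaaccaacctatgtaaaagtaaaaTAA
mt-Co2 (chrM:7667-7696): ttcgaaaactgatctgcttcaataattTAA
mt-Co3 (chrM:9361-9390): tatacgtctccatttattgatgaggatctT
mt-Atp6 (chrM:8578-8607): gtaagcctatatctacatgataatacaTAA
mt-Atp8 (chrM:7940-7969): tatttgcctcattcattaccccaacaaTAA
In mt-Cytb and mt-Co3 the DNA supplies only the T, and in mitochondria the poly(A) tail is known to complete such a stop codon.

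mt-Atp8 and mt-Atp6 share bases. The 204 bases of mt-Atp8 (chrM:7766-7969, plus strand) are shown with the 43 bases that also belong to mt-Atp6 in capitals, followed by the first 80 bases of mt-Atp6 (chrM:7927-8006) with the same 43 in capitals.
mt-Atp8: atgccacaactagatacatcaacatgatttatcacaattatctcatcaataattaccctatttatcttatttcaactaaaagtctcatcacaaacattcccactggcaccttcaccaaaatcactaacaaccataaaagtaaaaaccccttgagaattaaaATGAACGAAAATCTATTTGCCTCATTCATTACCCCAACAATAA
mt-Atp6: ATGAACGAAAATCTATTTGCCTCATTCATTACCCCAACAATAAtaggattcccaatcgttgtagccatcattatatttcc
Both are read in different frames from a single messenger RNA. mt-Co3 follows directly and shares 1 base with mt-Atp6, with no transfer RNA in between. Fragments that span these borders can be assigned to either gene, so the split between the 3 genes is uncertain.

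Nuclear copies of the mitochondrial genome add a further uncertainty. Among GENCODE M21 pseudogene transcripts, mt-Atp6, mt-Co2 and mt-Co3 each matched a copy on chromosome 1 without a difference, over 678 of 681 bases in Gm10925, 681 of 684 in Gm28661 and 783 of 784 in Gm28437. mt-Co1 matched Gm29216 on chromosome 1 over 31.3% of its length with 1 difference and Gm13340 on chromosome 2 over 100% at 97.6% identity. mt-Cytb had no nearer copy than Gm11410 on chromosome 4, at 92.9% identity over 99.8% of the gene. The contrast is shown over the first aligned 90 bases, with differences between gene and copy in capitals.
mt-Cytb (chrM:14146-14235): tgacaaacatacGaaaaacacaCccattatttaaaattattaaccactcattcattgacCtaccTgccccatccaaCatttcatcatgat
Gm11410: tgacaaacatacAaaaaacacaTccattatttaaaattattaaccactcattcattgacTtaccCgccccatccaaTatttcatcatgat
mt-Co2 (chrM:7013-7102): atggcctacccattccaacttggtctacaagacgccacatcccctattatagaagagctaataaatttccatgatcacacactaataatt
Gm28661: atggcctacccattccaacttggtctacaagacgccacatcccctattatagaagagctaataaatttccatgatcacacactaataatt
In this window mt-Cytb differed from its copy at 5 of 90 bases and mt-Co2 at 0. None of these copies had a row in the table, and how the authors' counting treated fragments that match both places was not tested.

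The libraries appeared shallow, as estimated from the steps in FPKM. The estimates were about 190727, 52060 and 55774 fragments in Eldr cKO 1, 2 and 3. They were 460350, 78990 and 129336 in control 1, 2 and 3. Some values lie below 1 fragment at these depths, so depths, fragment numbers and Poisson intervals in this report are approximate. Of 16 chondrocyte markers, 5 had a row and 0 were above 0 in every library, and their summed FPKM ran from 1.91 to 12.5 in Eldr cKO and from 0.616 to 4.20 in the controls. Col2a1 and Acan were among the 16 and had no row. Of 14 heart muscle markers, 14 had a row and 12 were above 0 in every library, with sums of 9077, 2247 and 2646 FPKM in Eldr cKO 1, 2 and 3 and of 10008, 2623 and 1085 FPKM in the controls. The label chondrocyte could be checked only in part, since few of its markers had a row and a level of 0 at this depth does not show absence. Each of the 12560 rows was above 0 in at least 1 library, so a gene detected in no library may have been left out. Why the other chondrocyte markers had no row was not tested. The heart marker sum exceeded the chondrocyte marker sum in every library, which the label does not account for. The origin of this heart signal was not tested. The levels below thus cannot be taken as those of cartilage cells. A set of 12 repeat-rich predicted genes took 3.84%, 48.8% and 46.2% of all FPKM in Eldr cKO 1, 2 and 3, against 3.07%, 12.9% and 13.4% in the controls. Since FPKM are parts of a whole, this share moves with every level below, and its part in them was not tested.

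Summed over the 6 genes, the level averaged 35654 ± 23619 FPKM in Eldr cKO and 78228 ± 56026 FPKM in control (SD, n = 3 each), with groups that overlapped. The sum was 62540, 18244 and 26177 FPKM in Eldr cKO 1, 2 and 3, against 141246, 59385 and 34052 FPKM in control 1, 2 and 3. Eldr cKO 1 lay above control 2 and control 3. As a share of the library's summed FPKM, the 6 genes made up 22.2%, 4.53% and 6.36% in Eldr cKO and 32.6%, 15.9% and 12.4% in the controls. With the repeat-rich genes removed from the total, the shares were 23.1%, 8.84% and 11.8% in Eldr cKO and 33.7%, 18.3% and 14.3% in the controls. Relative to all genes outside the mitochondrial genome and the repeat-rich set, the ratio was 0.423, 0.262 and 0.318 in Eldr cKO and 1.13, 0.933 and 0.272 in the controls. On that scale control 3 lay among the Eldr cKO libraries, beside the lowest heart marker sum of the 6 libraries. In such bulk samples, fewer cells rich in mitochondria and fewer transcripts per cell cannot be told apart.

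mt-Cytb, the catalytic heme-binding subunit of complex III and the complex's single mitochondrially encoded one, was the most abundant of the 6 in 5 libraries. It was listed at 13561, 6888 and 7525 FPKM in Eldr cKO 1, 2 and 3, against 35513, 16572 and 9678 FPKM in control 1, 2 and 3. Eldr cKO 1 lay between control 3 and control 2, so the groups overlapped. The mean was 9325 ± 3683 FPKM in Eldr cKO and 20588 ± 13378 FPKM in control (SD, n = 3 each). The log2 fold change of FPKM + 1 was -1.01 (SE 0.50) and did not pass (limma, Benjamini-Hochberg adjusted p = 1.00). An exact two-sided permutation test gave p = 0.2, where 3 against 3 libraries allow no p below 0.1.

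mt-Co1, mt-Co2 and mt-Co3 encode the catalytic core of cytochrome c oxidase, complex IV. mt-Co1 holds the heme and copper site where oxygen is reduced. It was listed at 21979, 4359 and 5967 FPKM in Eldr cKO 1, 2 and 3 and at 31371, 12187 and 8561 FPKM in control 1, 2 and 3. Eldr cKO 1 exceeded control 2 and 3, and it was the library in which mt-Co1 outranked mt-Cytb. The log2 fold change was -0.84 (SE 0.51; exact two-sided permutation test, p = 0.4).

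mt-Co2 carries the copper centre that takes electrons from cytochrome c. Its level was 6735, 2250 and 2909 FPKM in Eldr cKO, against 14525, 4957 and 3093 FPKM in control. Control 3 differed from Eldr cKO 3 by less than the counting error, with 95% Poisson intervals of 2393 to 3504 FPKM in Eldr cKO 3 and 2737 to 3482 FPKM in control 3. The log2 fold change was -0.78 (SE 0.60; exact two-sided permutation test, p = 0.4).

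mt-Co3, which stabilises the core, was the lowest of the 6 in 5 libraries. It was listed at 4291, 1804 and 1637 FPKM in Eldr cKO, against 8842, 4218 and 1486 FPKM in control, where control 3 was the lowest value of all. The log2 fold change was -0.71 (SE 0.65; exact two-sided permutation test, p = 0.7). Complex IV summed over its 3 genes thus stood at 33005, 8413 and 10513 FPKM in Eldr cKO, against 54738, 21363 and 13139 FPKM in control.

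mt-Atp6 and mt-Atp8 encode membrane subunits of ATP synthase, complex V. mt-Atp6 forms the path by which protons drive the rotor. It was listed at 11397, 786 and 4548 FPKM in Eldr cKO 1, 2 and 3, against 32359, 10416 and 6527 FPKM in control 1, 2 and 3. The value in Eldr cKO 2 stood apart, at about 27.9 fragments and a 95% Poisson interval of 522 to 1137 FPKM. Its highest value was 41.2 times its lowest, against 5.16 to 8.64 times for the other 5 genes. Its log2 fold change of -1.92 (SE 0.56) shrank to -0.85 without Eldr cKO 2 and to -1.26 without control 1 (exact two-sided permutation test on all 6 libraries, p = 0.3).

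mt-Atp8, a short subunit of the membrane stalk of ATP synthase, was listed at 4576, 2158 and 3591 FPKM in Eldr cKO 1, 2 and 3, against 18636, 11034 and 4708 FPKM in control 1, 2 and 3. It was the gene among the 6 whose groups did not overlap, while over all 9007 tested genes 2.45% had every Eldr cKO library below every control, and 3.94% had groups apart in either direction. The gap between the groups was narrow, since the 95% Poisson interval was 3929 to 5300 FPKM in Eldr cKO 1 and 3917 to 5613 FPKM in control 3. The means were 3441 ± 1216 FPKM in Eldr cKO and 11460 ± 6974 FPKM in control (SD, n = 3 each). The log2 fold change was -1.59 (SE 0.58), from -2.13 without control 3 to -1.13 without control 1. The exact two-sided permutation test gave p = 0.1, the smallest value this design allows. In the authors' deposited table its p-value was 0.0738 and its q-value 0.761, the smallest p of the 6 there.

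**Figure D1:**
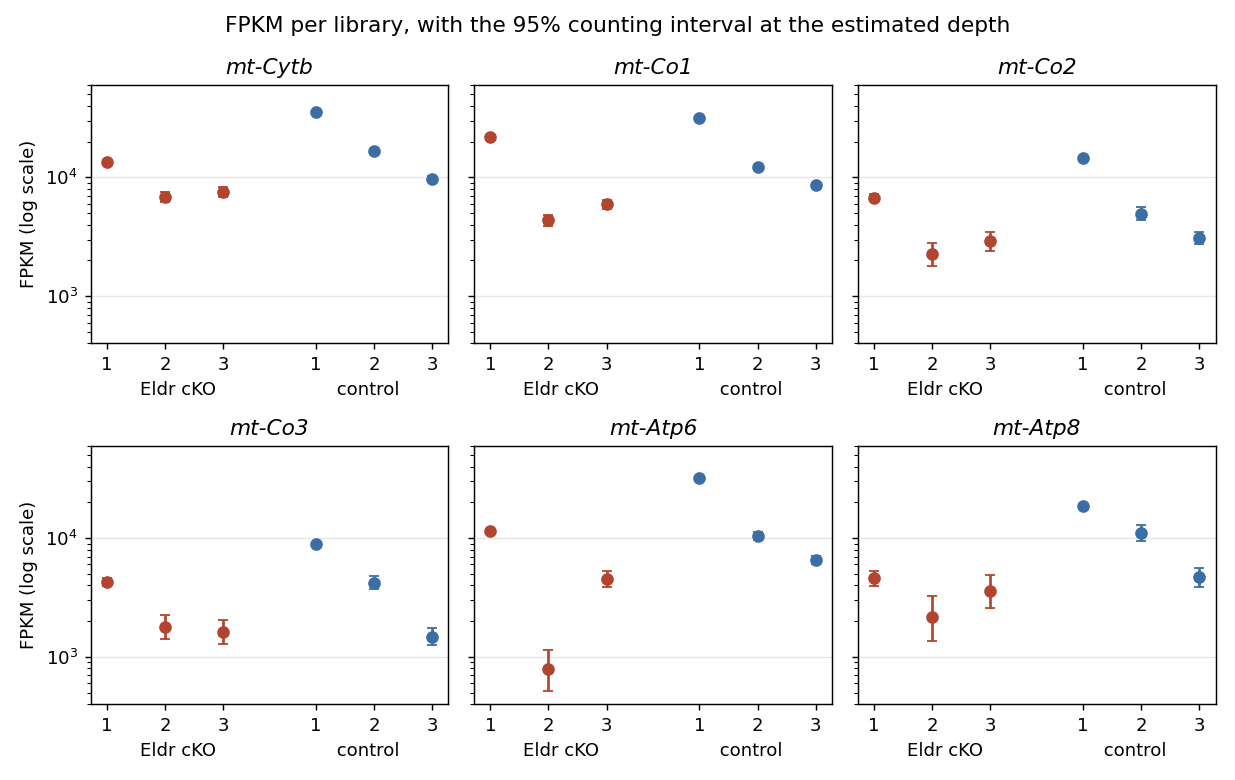
FPKM of each of the 6 genes in the 3 Eldr cKO and 3 control libraries on a log axis; bars are 95% Poisson intervals at the estimated depth and cover counting error only. Control 1 is the highest library for each gene, and the lowest point is mt-Atp6 in Eldr cKO 2, at 786 FPKM.

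Across the whole table none of the 6 was called. limma on log2(FPKM + 1) called 0 of the 6, and 0% of the 9007 tested genes at a Benjamini-Hochberg adjusted p under 0.05. At an unadjusted p under 0.05, 3 of the 6 (mt-Cytb, mt-Atp6 and mt-Atp8) lay lower in Eldr cKO, against 1.04% of tested genes, or 1.5% in either direction. All 6 had a log2 fold change below 0, against 54.5% of tested genes, with a median of -0.92 over the 6 and -0.13 over all tested. The 7 mitochondrially encoded complex I genes had a median of -0.99, with 6 of 7 below 0 and 4 of 7 at an unadjusted p under 0.05 in either direction. The gene above 0 was mt-Nd4, at 1.69 (SE 0.65). It was listed at 23.3 FPKM in control 3 and at 3758 FPKM or more in every other library. The SE used by limma came from a variance trend over genes of like abundance and was smaller than the SE from the gene's own spread in each of the 6: 0.56 against 1.32 for mt-Atp6 and 0.50 against 0.62 for mt-Cytb. With each library left out in turn, the change stayed below 0 for each of the 6, while its size for mt-Co3 ran from -1.39 without control 3 to -0.10 without control 1. mt-Co1 turned to 0.47 after quantile normalization. The count of 3 at the unadjusted threshold depended on the settings. Without the intensity trend, or at a mean of at least 5 FPKM, none of the 6 reached it. The limma SE of mt-Atp6 was then 1.29 and 1.11, in place of 0.56. mt-Atp6 alone reached it after quantile normalization, and mt-Cytb did not with robust variance estimation. With the replicate number as a block, mt-Co1 and mt-Co2 reached it as well. In the authors' deposited table none of the 6 did.

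**Figure D2:**
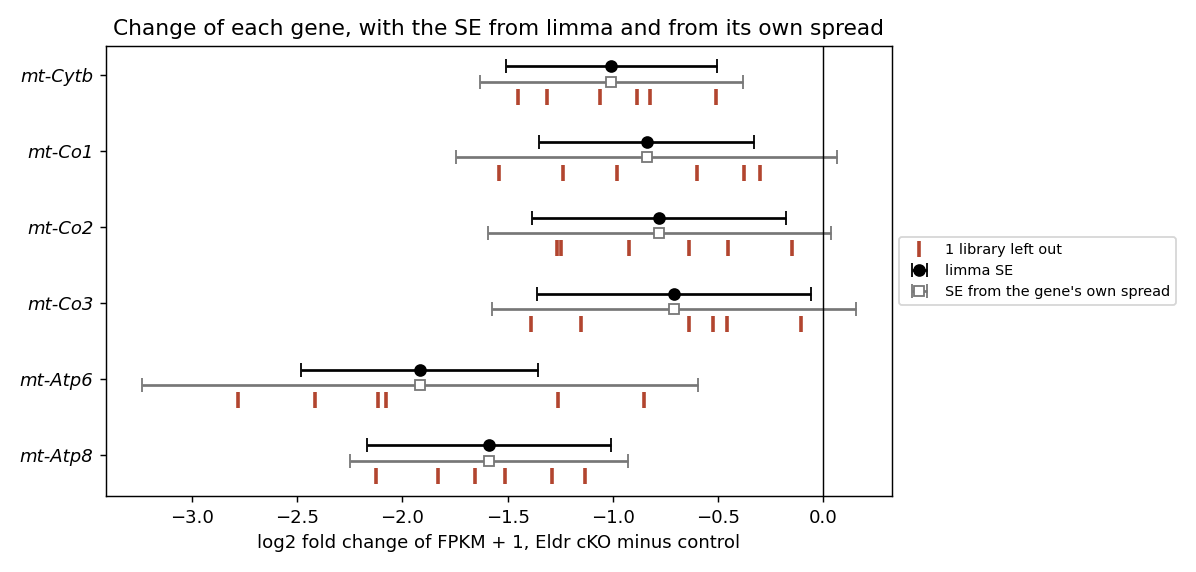
Log2 fold change of FPKM + 1, Eldr cKO minus control, for each gene, with the limma SE, the SE from the gene's own spread, and the values with 1 library left out. Each left-out value lies below 0, and the mt-Atp6 change spans -2.78 to -0.85.

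The libraries showed 5 different orders of the levels, and 2 of 6 libraries, Eldr cKO 3 and control 3, had that of the medians. By the median over all 6 libraries it ran from mt-Cytb (11619 FPKM) over mt-Co1 (10374 FPKM), mt-Atp6 (8471 FPKM), mt-Atp8 (4642 FPKM) and mt-Co2 (4025 FPKM) to mt-Co3 (3011 FPKM). Of the 5 pairs of neighbours, mt-Co2 exceeded mt-Co3 in 6 of 6 libraries, by 0.63 ± 0.31 (SD) on the log2 scale. For the other 4 pairs the mean difference, from 0.18 to 0.73 on the log2 scale, was smaller than its SD over libraries, from 0.47 to 0.95. These differences are a description with no test, since the same libraries set the order. mt-Atp6 changed rank most, at rank 6 in Eldr cKO 2 and rank 2 in control 1.

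As parts of the mitochondrial total, the shares of the 6 genes depended on a gene outside them, mt-Nd6. This complex I gene is the sole protein-coding gene on the opposite, light strand. The kit kept strand, per the labels, and no source used here says whether the counting did. It took up 6.18%, 71.2% and 58.4% of the summed mitochondrial FPKM in Eldr cKO 1, 2 and 3, against 8.47%, 48.9% and 43.9% in control 1, 2 and 3. The 6 genes together held 51.0%, 13.3% and 18.8% in Eldr cKO and 48.0%, 22.8% and 30.1% in control. Eldr cKO 1 and control 1, the deepest libraries and those with the lowest share of repeat-rich genes, thus resembled each other in this share more than either resembled its own group. Whether depth or the repeat-rich share plays a part in this was not tested.

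**Figure D3:**
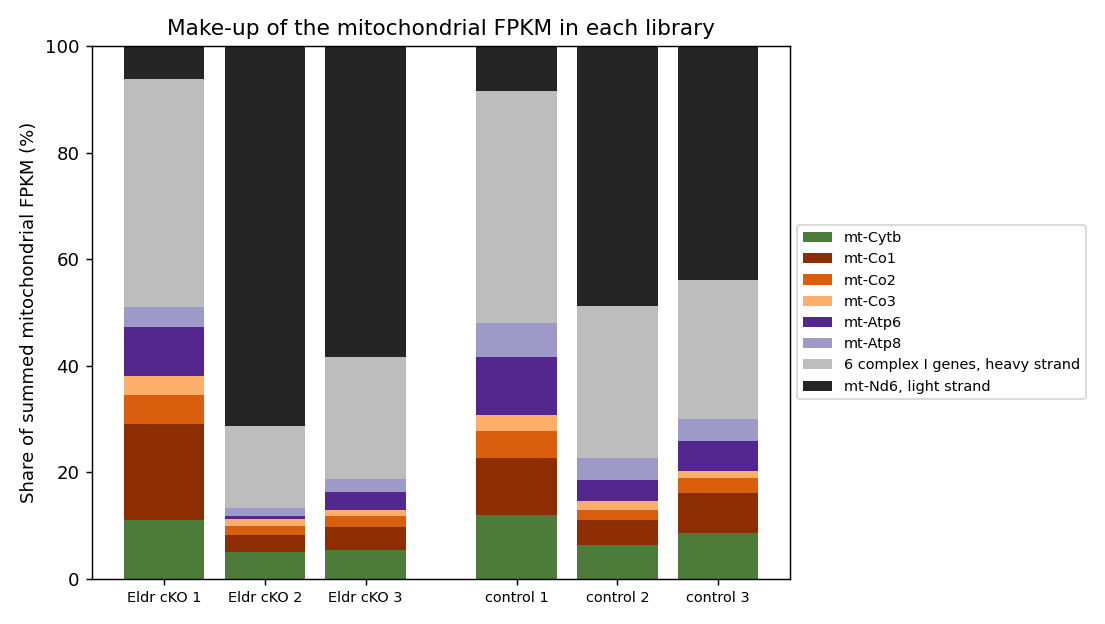
Share of the summed FPKM of the 13 mitochondrial genes per library, in percent, stacked by gene, with the 6 other heavy-strand genes in grey and mt-Nd6 in black. mt-Nd6 takes 6.18% and 8.47% in the libraries numbered 1 and 43.9% to 71.2% in the other libraries.

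With mt-Nd6 left out of the total, a denominator chosen after the data had been seen, the 6 genes together made up 44.5% to 54.4% of the 12 heavy-strand genes in every library. They held 54.4%, 46.4% and 45.2% in Eldr cKO 1, 2 and 3, against 52.5%, 44.5% and 53.7% in control 1, 2 and 3, with means of 48.7% and 50.2% that differed by less than the SD of either group (4.99 and 4.97 percentage points). Within this total the mean share was lower in Eldr cKO for 5 of the 12 genes, mt-Atp6 and mt-Atp8 and the complex I genes mt-Nd1, mt-Nd2 and mt-Nd3. mt-Atp8 held 3.98%, 5.48% and 6.20% in Eldr cKO, against 6.92%, 8.27% and 7.42% in control, without overlap between the groups. The values in Eldr cKO 2 and 3 rest on about 22.9 and 40.9 estimated fragments of mt-Atp8, and no counting interval was computed for shares. mt-Atp8 was 1 of the 12 genes, or 8.33%, whose groups did not overlap on this scale. That difference of -2.31 percentage points reached the smallest p possible (exact two-sided permutation test, p = 0.1), as it did at -2.28 points with all 13 genes in the total. mt-Atp6 held 9.91%, 1.999% and 7.86% in Eldr cKO and 12.02%, 7.81% and 10.3% in control, where Eldr cKO 1 and 3 overlapped the controls (exact permutation test, p = 0.3).

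The mean shares of the complex III and IV genes in this total were higher in Eldr cKO, with groups that overlapped for each of the 4. With all 13 genes in the total, the difference was -1.82 percentage points for mt-Cytb, -0.11 for mt-Co2, 0.84 for mt-Co1 and 0.02 for mt-Co3, and for mt-Co1 it was -3.89 without Eldr cKO 1. mt-Co2 held 5.86%, 5.72% and 5.03% of the heavy-strand total in Eldr cKO, against 5.39%, 3.72% and 4.87% in control (exact permutation test, p = 0.2). mt-Co3 averaged 3.72% ± 0.88 in Eldr cKO and 2.93% ± 0.51 in control (SD, n = 3 each; exact permutation test, p = 0.3). mt-Cytb averaged 14.1% ± 3.01 in Eldr cKO and 13.6% ± 1.46 in control (SD, n = 3 each; exact permutation test, p = 0.9). mt-Co1 held 19.1% in Eldr cKO 1 and between 9.13% and 13.5% in the other libraries (exact permutation test, p = 0.7). None of the 6 tests of shares could pass 0.05 in this design.

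**Figure D4:**
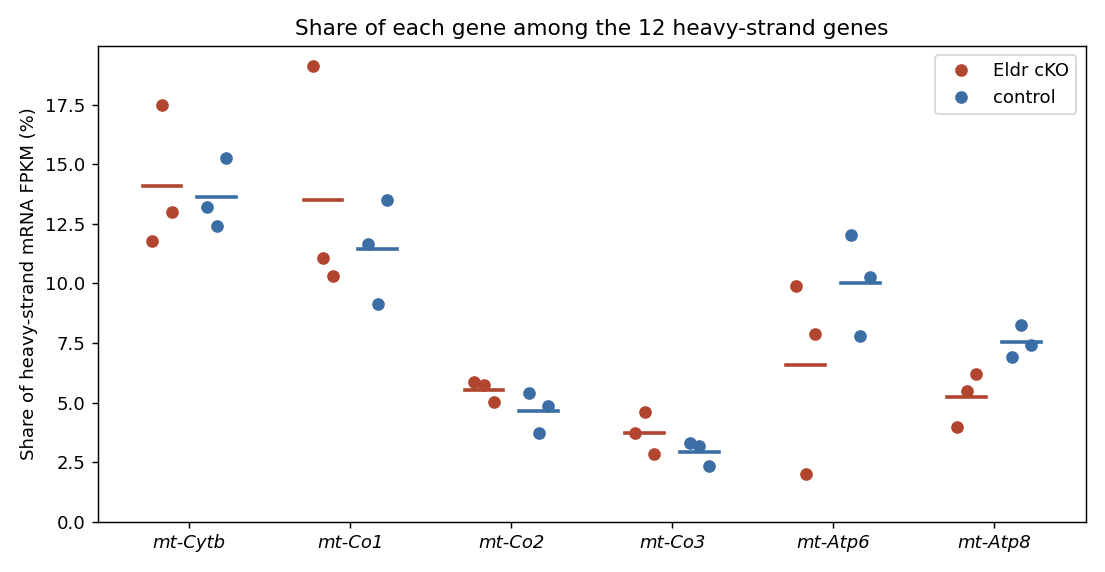
Share of each of the 6 genes in the summed FPKM of the 12 heavy-strand mitochondrial genes, in percent; points are libraries and lines group means. mt-Atp8 runs from 3.98% to 6.20% in Eldr cKO and from 6.92% to 8.27% in control.

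Within the block of mt-Atp8, mt-Atp6 and mt-Co3, the ratios were set by the low mt-Atp6 value of Eldr cKO 2. mt-Atp8 stood at 0.402, 2.74 and 0.790 times mt-Atp6 in Eldr cKO 1, 2 and 3, against 0.576, 1.06 and 0.721 times in control 1, 2 and 3. mt-Co3 stood at 0.376, 2.29 and 0.360 times mt-Atp6 in Eldr cKO, against 0.273, 0.405 and 0.228 times in control. Eldr cKO 2 was the highest of the 6 libraries for both ratios. The group difference on the log2 scale was 0.33 for mt-Atp8 over mt-Atp6 and 1.21 for mt-Co3 over mt-Atp6, and without Eldr cKO 2 it was -0.43 and 0.33. Across blocks, mt-Co3 over mt-Co1 differed by 0.13. Exact two-sided permutation tests gave p = 0.8, 0.3 and 0.8 for these 3 ratios, each 0.8 after Benjamini-Hochberg adjustment over the 3.

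In the fit of all 6 libraries none of the nuclear partners of these genes was called, as for 0% of the 9007 tested genes. Without Eldr cKO 1, 4 of all tested genes were called, among them Atp5k and Atpif1. Of 9 nuclear complex III subunits, 4 were on the higher and 5 on the lower side in Eldr cKO, with a median log2 fold change of -0.03 and 0 called. Uqcrb, a small subunit of the complex, was listed at 281, 121 and 257 FPKM in Eldr cKO and at 920, 106 and 121 FPKM in control. Its log2 fold change was -0.15, beside -1.31 (SE 1.07) for Uqcr11 and -0.03 for Uqcr10. Of 17 nuclear complex IV subunits, 7 were on the higher and 10 on the lower side (median -0.15, 0 called). Cox6a2, the form of heart and skeletal muscle, was listed at 991, 254 and 170 FPKM in Eldr cKO and at 679, 92.7 and 56.3 FPKM in control, a log2 fold change of 1.19 (SE 0.98). Cox6b1 and Cox7c had -0.40 each. Of 17 nuclear complex V subunits, 8 were on the higher and 9 on the lower side (median -0.00, 0 called). Usmg5, the most abundant of them, was listed at 718, 110 and 181 FPKM in Eldr cKO and at 3428, 97.3 and 435 FPKM in control (log2 fold change -1.11, SE 0.92). Atp5a1, the alpha subunit of the catalytic head, was listed at 425, 48.1 and 228 FPKM in Eldr cKO and at 423, 106 and 134 FPKM in control. Its log2 fold change was -0.12, and that of Atp5h -0.36. The median over all tested genes was -0.13, with 54.5% on the lower side.

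Assembly factors and regulators of mitochondrial RNA were sparse. Assembly factors with a row numbered 6 for complex III, 20 for complex IV and 3 for complex V. Of these, 4, 18 and 3 were tested, 2, 7 and 1 lay on the higher side and 2, 11 and 2 on the lower side, and 0 were called. Atpaf1, which helps to assemble the catalytic head of ATP synthase, was listed at 6.11, 0 and 0 FPKM in Eldr cKO and at 7.67, 3.48 and 4.17 FPKM in control. Of 26 factors of mitochondrial transcription and RNA handling with a row, 0 were above 0 in every library. Among the 21 tested, 9 were on the higher and 12 on the lower side, with a median of -0.23 and 0 called. Grsf1, a mitochondrial RNA-binding protein, was listed at 26.8, 0 and 0 FPKM in Eldr cKO and at 33.0, 0 and 0 FPKM in control. At the estimated depths 1 fragment on a 2 kb transcript equalled 9.60 FPKM in Eldr cKO 2 and 1.09 FPKM in control 1. A level of 0 thus does not show absence. Far lower values above 0 also occurred, such as 0.309 FPKM for Fsd1l in Eldr cKO 2. Whether the depth is underestimated or parts of fragments were counted was not tested.

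The genes outside the mitochondrial genome whose pattern was most like that of the 6 were Cacna2d1, Cd36, Fsd1l, Akap6 and Immt. Likeness was the Pearson correlation of log2(FPKM + 1) with the summed level of the 6 genes over 6 libraries. It ranged from 0.950 to 0.979 among these 5, the highest of 1546 genes above 0 in every library, and is given as a description of libraries that also differ in depth. Cd36, a fatty acid transporter, was listed at 99.9, 10.6 and 17.7 FPKM in Eldr cKO and at 241, 77.7 and 17.4 FPKM in control. Immt, a scaffold protein of the mitochondrial inner membrane, was listed at 22.0, 2.36 and 3.07 FPKM in Eldr cKO and at 29.8, 11.5 and 3.70 FPKM in control. Cacna2d1 encodes a calcium channel subunit and Akap6 an anchoring protein of muscle. Both were highest in control 1, as each of the 6 genes was.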

How the data were processed

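RNA sequencing values of 3 Eldr cKO and 3 control libraries were used, grouped by the genotype label. The authors' deposited table gave FPKM for every gene in each library. The submitters' processing notes list the tools StringTie, cutadapt and HISAT2 2.0.5, with no order. They name build hg19, while the gene IDs are mouse. Positions of the 6 genes equalled GENCODE M21 on GRCm38. The deposited group columns held the mean of log2(FPKM + 1), computed by the authors, and the deposited log2 fold change was their difference, with a fold ratio, a p-value and a q-value per gene.

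Rows averaging 1 FPKM or more entered a limma fit (3.58.1, under R 4.3.3) on log2(FPKM + 1), two-sided, with an intensity trend and Benjamini-Hochberg adjustment over all 9007 tested genes. The prior degrees of freedom were infinite, so the limma SE ignores a gene's own spread. The script was tested on simulated libraries of equal depth, unlike the libraries here. That test thus covers the code and not how well the fit suits these data. Shares and ratios had exact permutation tests in Python 3.11.15. Nuclear copies were found with BLAST 2.17.0 at 85% identity or more. Depth was the most frequent value of the inverse of FPKM times length over genes with 1 transcript. That value was shared by 25 to 60 genes per library. Intervals use this depth and cover counting error only, not error in the depth.

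Named genes were the 6 members, the 3 most abundant genes of each list, of which some are printed, and the 5 genes most like the members. Members and lists were chosen with earlier results of these data known. Alternatives changed the pseudocount, filter, normalization, variance model, denominators, libraries and the replicate block.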

Additional observations from a re-analysis of the deposited data

How the results depend on the processing

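Of 66 alternative log2 fold changes of the 6 genes under the 11 settings that can change a fold, 65 stayed below 0, and none passed the threshold under these or the other 5 settings. The exception was mt-Co1 after quantile normalization (0.47), where the median of all tested genes was 0.01 in place of -0.13. Without 1 library the log2 fold change ran from -1.45 to -0.51 for mt-Cytb, from -1.54 to -0.30 for mt-Co1, from -1.26 to -0.15 for mt-Co2, from -1.39 to -0.10 for mt-Co3, from -2.78 to -0.85 for mt-Atp6 and from -2.13 to -1.13 for mt-Atp8. The count of called genes was 0 in all but 2 fits, a range of 0 to 4. It was 1 without control 1 (mt-Nd4, higher in Eldr cKO). Without Eldr cKO 1 it was 4 (Gm10800, Gm21738, Atp5k and Atpif1), 2 higher and 2 lower in Eldr cKO. The count at an unadjusted p under 0.05 was 135, and it was 65 at a mean of at least 5 FPKM, where fewer genes are tested, and 99 to 377 without 1 library.

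With mt-Nd6 left out of the mitochondrial total, the difference in share, Eldr cKO minus control, turned to 0.48 percentage points for mt-Cytb and to 0.87 for mt-Co2. With mt-Nd4 left out as well it was 1.16 for mt-Cytb and 1.16 for mt-Co2. In the full total the difference ran, without 1 library, from -3.77 to -0.28 for mt-Cytb, from -3.89 to 3.48 for mt-Co1, from -1.32 to 0.76 for mt-Co2, from -0.73 to 0.53 for mt-Co3, from -5.00 to -0.50 for mt-Atp6 and from -2.83 to -1.56 for mt-Atp8. The share of the 6 genes in the library was lower by 9.27 points in Eldr cKO, with a difference from -14.9 to -3.11 without 1 library. Log2 ratios ran from -0.43 to 0.95 for mt-Atp8 over mt-Atp6, from 0.33 to 1.66 for mt-Co3 over mt-Atp6 and from -0.15 to 0.39 for mt-Co3 over mt-Co1. The cause of these turns was not tested.

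With the replicate number as a block, 0 genes passed and 223 had an unadjusted p under 0.05. Same-numbered libraries deviated together with correlations of 0.28, 0.15 and 0.095, each library matching its own number best, as a hint from the data. The libraries numbered 1 were also the deepest, with the lowest share of repeat-rich genes. The part of depth in these correlations was not tested. Nothing in the labels pairs the libraries, so the block stayed an alternative. At an estimated 22.9 to 80.1 fragments for mt-Atp6, mt-Atp8, mt-Co2 and mt-Co3 in Eldr cKO 2, depth limits what these values can show.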

Other observations

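Markers of other cell types were set beside the mitochondrial genes. Red blood cell markers summed to 595, 682 and 580 FPKM in Eldr cKO 1, 2 and 3 and to 744, 341 and 319 FPKM in control 1, 2 and 3, with 4 of 5 genes on the higher side in Eldr cKO and 0 called. Macrophage markers summed to 376, 451 and 350 FPKM in Eldr cKO and to 282, 345 and 118 FPKM in control, with 5 of 8 on the higher side and 0 called. Of 12 fast skeletal muscle markers 3 had a row and 2 were tested, both on the lower side and 0 called. Heart muscle markers lay on the higher side in 11 of 14 genes, with a median log2 fold change of 0.47 and 0 called. Their share of the FPKM outside the mitochondrial genome and the repeat-rich set was 4.19% ± 1.68 in Eldr cKO and 4.33% ± 3.56 in control (SD, n = 3 each). The 12 repeat-rich genes had a log2 fold change above 0, with a median of 1.45 and 0 called. Their sum was 10798, 196854 and 189900 FPKM in Eldr cKO 1, 2 and 3, against 13286, 48001 and 36911 FPKM in control 1, 2 and 3, so Eldr cKO 1 lay below every control.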
